A study of Mus musculus with 6 samples.

Results

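Interferon response genes are the genes that cells switch on when type I or type II interferon binds its receptor. The list studied here holds 40 such genes, chosen by symbol. A gene was followed through every probe set (the array's unit of measurement, a group of short probes for a transcript) that the platform annotation gives a single symbol. By that rule 38 of the 40 genes were measured, with 59 probe sets, among 18193 genes named on the array. The other two are Isg15, whose probe set is shared with a similar gene, and Ifi44, and neither is analysed here. A filter on low signal left 35 of the 38 genes, among 11378 tested. Dhx58, Mx1 and Mx2 lay below it.

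Each array carried RNA from the mesenteric arteries of 1 mouse, on a mixed background that included FVB, SVJ129 and C57BL/6. The 3 control mice had loxP-flanked beta1 integrin and no Cre, and the 3 knockout mice had the same alleles with the sm22alphaCRE transgene, active in smooth muscle. Tamoxifen was given to both groups as 14 doses of 1 mg, starting at the age of 5 weeks, and the mice were 7 weeks old. Controls thus differed from knockouts in the transgene as well as in the deletion, and the effects of Cre and of integrin loss cannot be told apart. Fat and lymph tissue had been cleared from the arteries, per the labels, yet the adipocyte genes Adipoq and Fabp4 read 11.31 to 13.53 and 13.40 to 14.10 over the 6 arrays. The arteries were measured whole, so fewer cells of a type and less RNA per cell cannot be told apart either.

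Values are log2(intensity + 1) after quantile normalization, and differences are knockout minus control. The 6 arrays had median intensities of 62.8 to 72.6. Itgb1, the targeted gene, stood at 60.1% of the control level, with no overlap between groups (difference -0.73, SE 0.22, limma adjusted p = 0.129). The letters M (5 animals) and F (knockout 86 alone) in the animal names matched their Xist and Y-linked signals, so sex is unequal between groups. Smooth muscle markers were present on every array, but 8 of the 9 had differences below 0, with a list median of -0.34. Lmod1 (-1.20), Myh11 (-0.46), Myl9 (-0.34) and Tagln (-0.33) lay below every control in every knockout (15.1% of all genes tested did), while Acta2 stood at -0.03. None of the 9 passed the limma threshold, and 3 were lower at an unadjusted p under 0.05 (11.5% of all genes were). The interferon genes had the same median as this list, and the part of smooth muscle RNA in their differences was not tested.

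Interferons reach their target genes through a short relay. Type I interferon activates the kinases Jak1 and Tyk2, and a complex that contains Stat2 and Irf9 then binds the interferon-stimulated response element (ISRE) in promoters. Interferon-gamma acts through Jak1 and Jak2, and its target promoters carry the gamma-activated site (GAS). The induced genes encode sensors of viral RNA, proteins that block viral replication, GTPases that attack pathogen vacuoles, and the proteasome and transporter subunits that feed peptides to MHC class I. A low level of this program is present in healthy vessels, and endothelial cells and macrophages are among the cells that carry it.

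The ISRE was searched as GAAA, any 2 bases and GAAA again, and the GAS as TTCNNNGAA, both on either strand, in the 300 bases from 250 before to 50 after each gene start in RefSeq (GRCm38.p6). Of the members, 31 had a promoter in that table. An ISRE match was present in 15 of them, or 48.4%, against 3.99% of the 27025 genes in the table. A GAS match was present in 9 members, or 29.0%, against 9.55% of genes, and 5 members had both. The 2 motifs overlapped in 2 member promoters. The 250 bases before the start are shown, 5′ to 3′, for the 5 genes with the largest differences among the tested members with an ISRE in that stretch, and for Ifit2, which had none. Capitals mark the ISRE matches.

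Ifit3 (chr19:34583279-34583528, plus strand): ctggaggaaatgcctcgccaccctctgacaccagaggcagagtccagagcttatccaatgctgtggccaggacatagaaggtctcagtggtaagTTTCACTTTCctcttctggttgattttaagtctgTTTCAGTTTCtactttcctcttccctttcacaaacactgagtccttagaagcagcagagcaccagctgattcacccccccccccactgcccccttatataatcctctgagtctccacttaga
Ifit1 (chr19:34640639-34640888, plus strand): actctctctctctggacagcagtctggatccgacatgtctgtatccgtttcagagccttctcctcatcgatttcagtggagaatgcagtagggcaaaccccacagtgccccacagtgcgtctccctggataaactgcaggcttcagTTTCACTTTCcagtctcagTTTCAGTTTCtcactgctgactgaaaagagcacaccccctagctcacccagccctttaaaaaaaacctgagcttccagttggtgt
Gbp2 (chr3:142620413-142620662, plus strand): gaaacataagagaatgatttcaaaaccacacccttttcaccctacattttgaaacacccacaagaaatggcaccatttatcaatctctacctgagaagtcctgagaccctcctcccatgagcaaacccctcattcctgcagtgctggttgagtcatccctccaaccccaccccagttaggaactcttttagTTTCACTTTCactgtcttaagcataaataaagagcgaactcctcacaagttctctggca
Rsad2 (chr12:26456453-26456702, minus strand): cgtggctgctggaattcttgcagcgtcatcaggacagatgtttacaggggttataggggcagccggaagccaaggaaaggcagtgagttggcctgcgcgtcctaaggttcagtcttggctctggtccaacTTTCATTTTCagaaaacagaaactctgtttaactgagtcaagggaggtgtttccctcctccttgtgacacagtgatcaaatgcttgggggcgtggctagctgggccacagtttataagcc
Gbp3 (chr3:142559794-142560043, plus strand): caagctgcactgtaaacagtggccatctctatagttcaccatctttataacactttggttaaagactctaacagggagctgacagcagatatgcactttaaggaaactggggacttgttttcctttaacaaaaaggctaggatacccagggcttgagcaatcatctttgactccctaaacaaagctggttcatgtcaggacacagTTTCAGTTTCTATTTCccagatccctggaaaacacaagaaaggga
Ifit2 (chr19:34550444-34550693, plus strand): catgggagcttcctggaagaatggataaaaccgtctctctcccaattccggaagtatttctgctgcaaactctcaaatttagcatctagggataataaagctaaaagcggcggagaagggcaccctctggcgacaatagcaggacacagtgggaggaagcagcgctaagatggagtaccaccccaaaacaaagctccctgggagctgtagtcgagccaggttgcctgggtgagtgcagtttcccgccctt

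In Ifit1 and Ifit3 the same pair of 10-base matches occurs in the same order, with first bases at positions -104 and -85 before the Ifit1 start and -156 and -122 before that of Ifit3. The Ifit2 stretch belongs to 1 of 2 starts in the table, and neither window held an ISRE match; the window shown held 1 GAS match. A missing match says only that these letters are absent from the window. The median difference was -0.40 over the 14 tested members with an ISRE match and -0.29 over the 15 without one. The ranges of these 2 groups, -0.96 to 0.37 and -0.66 to 0.38, overlapped.

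Knockouts 72 and 86 were on the low side over the 35 tested members and knockout 73 was not, with medians of -0.28, -0.84 and 0.09 relative to the control mean. The difference between the groups lay below 0 in 31 members, while 57.1% of all genes tested lay below 0. With no filter it lay below 0 in 33 of the 38 measured members, against 57.4% of all genes. The median difference was -0.34 over the members and -0.05 over all genes tested; without knockout 86 it was -0.10 over the members, and without knockout 73 it was -0.57. At an adjusted p under 0.05 (limma, Benjamini-Hochberg over all genes) 1 member fell, Ifit1, where 0.694% of all genes were called lower and 2.63% in either direction. Of all calls 26.4% were lower, or 37.1% with median centring in place of quantile normalization. No member was called higher, against 1.93% of all genes; at an unadjusted p under 0.05 the same fit gave 5 members lower (11.5% of all genes) and 1 higher (9.91%), with 21.4% of all genes in either direction. With no filter 0 members passed the limma threshold, where 0.956% of all genes did and 0.0934% were lower. Tested by probe set, 0 of the 48 member probe sets above the filter passed (1.38% of all filtered probe sets did), and 0 of 59 passed with no filter (0.4% of all did). Of those 59 probe sets 50 lay below 0, against 54.1% of all probe sets. The groups did not overlap in 6 members that were lower in every knockout, where 15.1% of all genes did so, and in 2 that were higher, where 12.9% did so.

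**Figure D1:**
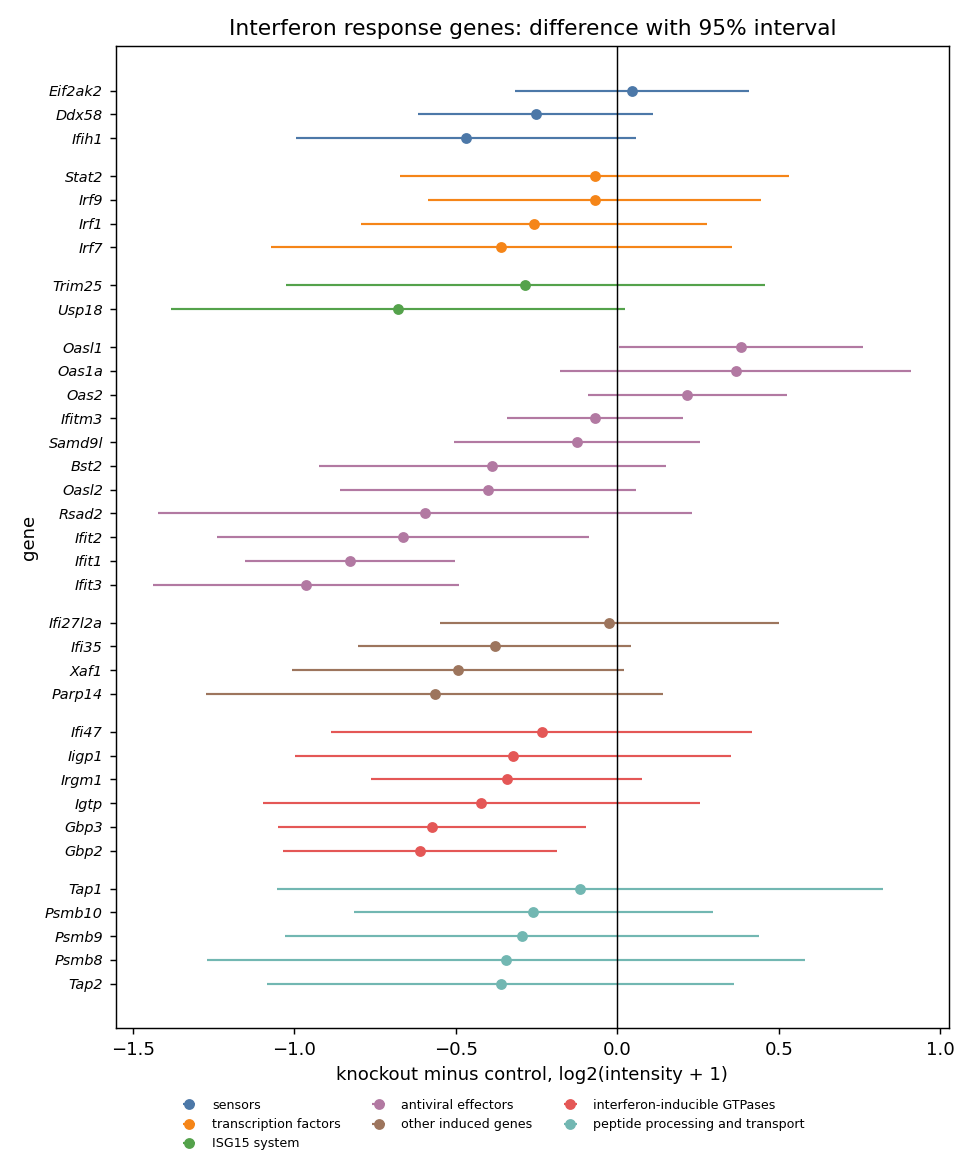
Difference between knockout and control (x axis, log2(intensity + 1)) for the 35 tested interferon response genes, grouped and coloured by role. Points are the differences and bars their 95% limma intervals from 3 arrays a group. Ifit1, Ifit2, Ifit3, Gbp2 and Gbp3 have intervals wholly below 0. Oasl1, the gene farthest to the right at 0.38, has an interval wholly above 0 (0.005 to 0.76).

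The sensors come first in the pathway's order. Ifih1 encodes MDA5, a cytoplasmic sensor of long double-stranded RNA. Its values were 8.52, 9.02 and 8.62 in controls 30, 74 and 75, and 8.36, 8.54 and 7.86 in knockouts 72, 73 and 86. Knockout 73 lay within the control range and the other two below it. The difference was -0.47 (SE 0.22, adjusted p = 0.277). Ddx58 encodes RIG-I, the sensor of short RNA with a triphosphate end, and stood at -0.25 (adjusted p = 0.384). Eif2ak2 encodes the translation-blocking kinase PKR, and its groups were nearly level at 0.05 (SE 0.15). Its sign was not stable: the mean of its filtered probe sets gave -0.17. Dhx58, the gene of the RIG-I-like regulator LGP2, ran from 5.16 to 6.55 in its brightest probe set and was not tested after the filter.

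Of the transcription factors, Irf7, the main amplifier of type I interferon production, had values of 8.88, 9.18 and 8.80 in controls 30, 74 and 75. Its knockout values were 8.57, 9.21 and 7.997 in knockouts 72, 73 and 86. The groups overlapped, because knockout 73 was the highest of all arrays and knockout 86 the lowest. The difference of -0.36 (SE 0.30, adjusted p = 0.524) became -0.06 without knockout 86.

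Stat2 and Irf9 encode partners in the ISRE-binding complex. Stat2 read 7.06, 7.36 and 6.41 in controls 30, 74 and 75 and 6.74, 7.10 and 6.78 in knockouts 72, 73 and 86. Irf9 read 8.37, 8.49 and 7.75 in those controls and 7.997, 8.31 and 8.09 in those knockouts. In both genes all 3 knockouts lay within the control range, and both differed by -0.07 (adjusted p = 0.901 and 0.883). Irf1, a factor induced chiefly by interferon-gamma, differed by -0.26 (adjusted p = 0.542), with knockout 86 at 9.45 and the other 5 arrays at 10.10 to 10.32. The 95% intervals of Stat2 and Irf9, -0.67 to 0.53 and -0.59 to 0.45, leave room for differences in either direction.

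The ubiquitin-like modifier Isg15 works with a protease, Usp18, that removes it from proteins and also dampens signalling at the type I interferon receptor. Usp18 had values of 7.81, 7.78 and 7.53 in controls 30, 74 and 75, and of 7.20, 7.53 and 6.36 in knockouts 72, 73 and 86. Knockout 73 lay just at the lowest control, and knockout 86 lay far below all others. The difference was -0.68 (SE 0.30, adjusted p = 0.246). Trim25, the ubiquitin ligase that activates RIG-I, stood at -0.29 (adjusted p = 0.631), and its 3 probe sets ranged from -0.29 to 0.12.

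The clearest difference among the antiviral effectors was in the Ifit genes, which encode tetratricopeptide-repeat proteins that bind foreign RNA and block its translation. Ifit1 read 8.996, 8.64 and 8.82 in controls 30, 74 and 75, and 7.999, 8.05 and 7.92 in knockouts 72, 73 and 86. All 3 knockouts lay close together and well below every control. Its mean was 8.82 ± 0.18 (SD, n = 3) in controls and 7.99 ± 0.06 (SD, n = 3) in knockouts. Ifit1 fell by 0.83 on the log2 scale (SE 0.14, 95% interval -1.15 to -0.50), to 56.4% of control (limma adjusted p = 0.0326). The difference lay between -0.91 and -0.74 with any 1 array left out, but the call was kept only without control 74; the adjusted p was 0.0712 without control 30, 0.113 without control 75, and 0.142, 0.084 and 0.129 without knockouts 72, 73 and 86. With no filter on low signal it was 0.0856.

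Ifit3 read 9.89, 9.97 and 9.92 in controls 30, 74 and 75. It read 8.89, 9.37 and 8.62 in knockouts 72, 73 and 86. The controls lay close together and every knockout lay below them, with more spread. The difference was -0.96 (SE 0.20, 51.3% of control), which missed the threshold (adjusted p = 0.0608). It passed without knockout 73 (adjusted p = 0.0348) and with array weights (adjusted p = 0.0149). Ifit2 read 8.39, 8.87 and 8.71 in the controls and 7.93, 8.45 and 7.60 in the knockouts, so that knockout 73 overlapped control 30. It stood at -0.66 (SE 0.24, adjusted p = 0.186). Ifit2 and Ifit3 are neighbours on the chromosome, and 3 other protein-coding genes separate Ifit3 from Ifit1.

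**Figure D2:**
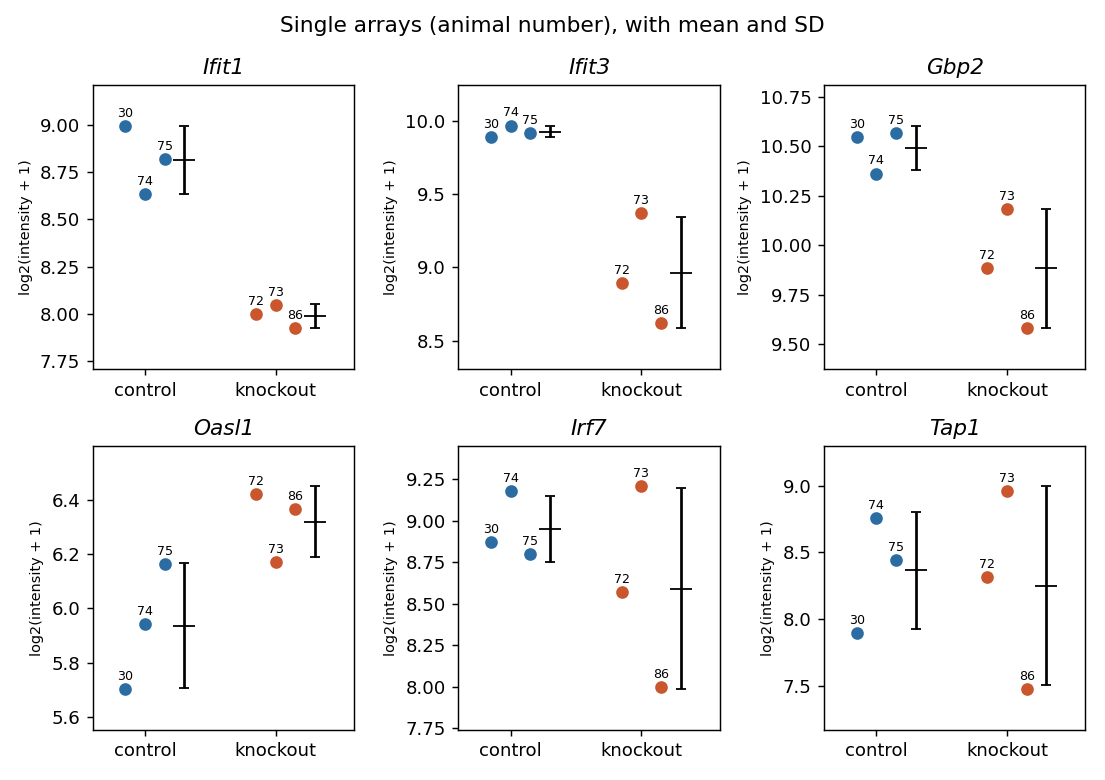
Log2(intensity + 1) on each array (y axis, a separate scale per gene) for 6 interferon response genes, by group; numbers are animals, and black bars give the mean and SD of 3 arrays. The knockouts lie below all controls in Ifit1, Ifit3 and Gbp2 and above them in Oasl1, while in Irf7 and Tap1 knockout 73 is the highest and knockout 86 the lowest of the 6 arrays.

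The oligoadenylate synthetase family was split. Of its 7 measured genes 3 lay above 0 and 4 below, and of the 5 tested 0 passed the limma threshold and 1, Oasl1, had an unadjusted p under 0.05. Active enzymes of this family make the messenger that activates RNase L, while some members, Oasl1 among them, act without making it. Oas2 read 7.79, 8.10 and 7.96 in controls 30, 74 and 75 and 8.18, 8.12 and 8.21 in knockouts 72, 73 and 86. Oasl1 read 5.70, 5.94 and 6.16 in those controls and 6.42, 6.17 and 6.37 in those knockouts. In both genes every knockout lay above every control, though the closest pair of arrays nearly touched. The differences were 0.22 (SE 0.13, adjusted p = 0.376) for Oas2 and 0.38 (SE 0.16, adjusted p = 0.229) for Oasl1, and Oasl1 lies close to the filter level of 6.10. Oas1a stood at 0.37 (adjusted p = 0.397), and its knockout 86 value of 7.61 lay within the control range. Oasl2, which lies next to Oasl1, read 9.10, 9.31 and 9.04 in the controls and 8.87, 9.01 and 8.37 in the knockouts, a difference of -0.40 (SE 0.19, adjusted p = 0.282). Of the family genes outside the member list, Oas1b stood at -0.14 (adjusted p = 0.67), and Oas1c and Oas3, both below the filter, at -0.68 and -0.32.

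Other antiviral effectors overlapped between groups. Rsad2, which encodes viperin, an enzyme that makes a chain-terminating nucleotide, stood at -0.59 (SE 0.35, adjusted p = 0.369). Of its 3 probe sets, 1 stood at 0.14 and the other two at -0.59 and -0.65. Bst2, the tetherin gene, read 9.76 to 9.83 in controls and 9.37, 9.89 and 8.99 in knockouts 72, 73 and 86, so the knockouts fell on both sides of a narrow control range. It stood at -0.39 (adjusted p = 0.369). Ifitm3, whose protein blocks virus entry from endosomes, was nearly level, with all 6 arrays between 12.79 and 12.95 and a difference of -0.07 (95% interval -0.34 to 0.20). Samd9l stood at -0.12 (adjusted p = 0.69). The dynamin-like antiviral genes Mx1 and Mx2 had low signal, at most 6.33 and 5.68 on any array, and were not tested after the filter.

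Among the other induced genes, Parp14, an ADP-ribosyltransferase, stood at -0.57 and Xaf1, an interferon-inducible partner of the apoptosis inhibitor XIAP, at -0.49 (adjusted p = 0.321 and 0.249). In the probe sets used for both, knockout 73 lay in the control range and knockout 86 was lowest. The other Parp14 probe set read 6.48, 6.66 and 6.65 in the controls and 5.99, 6.37 and 5.81 in the knockouts. Every knockout lay below every control there, a difference of -0.54 (limma unadjusted p = 0.034, by probe set with no filter). The 2 Xaf1 probe sets disagreed: the other read 9.31, 7.23 and 6.19 in the controls and 8.26 to 8.44 in the knockouts, a difference of 0.79 (unadjusted p = 0.33), and their mean gave 0.15. Ifi35 stood at -0.38 (adjusted p = 0.272), and its 3 probe sets ranged from -0.43 to -0.29. Ifi27l2a was level, at -0.02 (95% interval -0.55 to 0.50).

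The interferon-inducible GTPases help to destroy the vacuoles of intracellular pathogens and are strongly induced by interferon-gamma. All 6 lay below 0 (57.1% of all genes did), and 3 were lower in every knockout (15.1% of all genes were). Gbp2 read 10.55, 10.36 and 10.57 in controls 30, 74 and 75, and 9.89, 10.18 and 9.58 in knockouts 72, 73 and 86. Gbp3, on the same chromosome with a single protein-coding gene between them, read 10.30, 10.31 and 10.12 in the controls and 9.68, 10.04 and 9.30 in the knockouts. In both genes the knockouts keep the order 73, 72, 86 and lie wholly below the controls. Gbp2 stood at -0.61 (SE 0.18, 65.5% of control, adjusted p = 0.127), and Gbp3 at -0.57 (SE 0.20, 67.2% of control, adjusted p = 0.173).

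Some probes of the set used for Gbp2 also match related sequences, as the x in its name shows. The other Gbp2 probe set, with no such mark, gave -0.57 in the fit by probe set with no filter (limma unadjusted p = 0.020). Irgm1 read 9.25 to 9.30 in controls and 9.11, 9.12 and 8.57 in knockouts 72, 73 and 86, a difference of -0.34 (adjusted p = 0.312). Igtp, Iigp1 and Ifi47 stood at -0.42, -0.32 and -0.23 with overlapping groups (adjusted p = 0.434, 0.545 and 0.655). Without knockout 86, Ifi47 turned to 0.03.

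Psmb8, Psmb9 and Psmb10 encode the catalytic subunits of the immunoproteasome, and Tap1 and Tap2 the transporter that carries its peptides into the endoplasmic reticulum. Psmb8 read 8.68, 9.73 and 8.96 in controls 30, 74 and 75, and 8.77, 9.44 and 8.13 in knockouts 72, 73 and 86. The spread within each group was larger than the distance between the groups. Its difference was -0.34 (SE 0.39, adjusted p = 0.644), and those of Tap2, Psmb9, Psmb10 and Tap1 were -0.36, -0.29, -0.26 and -0.11, with adjusted p-values of 0.527, 0.616, 0.554 and 0.896. In all 5 genes control 74 was the highest control and knockout 86 the lowest array. Psmb9, Tap1, Psmb8 and Tap2 follow one another on the chromosome with no other protein-coding gene between them. Without knockout 86, Tap1 turned to 0.27 and Psmb8 became -0.02.

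The order of the arrays was shared over most of the list. Knockout 86, the animal labelled F, had the lowest value of all 6 arrays in 28 of the 35 tested members, or 80.0%, against 25.0% of all genes tested. Knockout 73 was the highest knockout in 31 members, or 88.6%, against 36.0% of all genes. Control 74 was the highest control in 24 members, or 68.6%, against 38.3%. Relative to each gene's control mean, the median over the members was -0.05, 0.17 and -0.01 in controls 30, 74 and 75. The knockout 73 median lay within that range and the medians of knockouts 72 and 86 below it. Without knockout 86, 34 members were tested and 29 of them lay below 0. Sex and knockout 86 cannot be told apart, and their part in these differences was not tested.

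**Figure D3:**
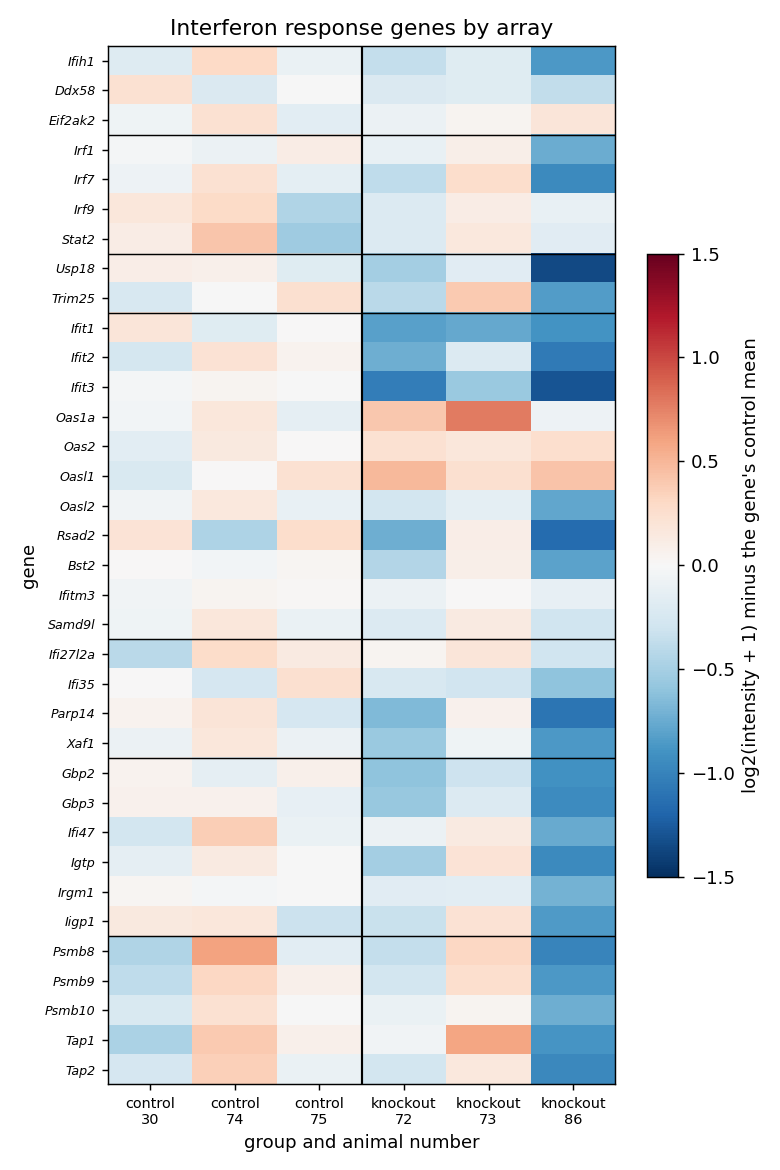
Heat map of the 35 tested interferon response genes (rows, ordered by role with black lines between roles) on the 6 arrays (columns, by group and animal number). Colour gives log2(intensity + 1) minus the gene's mean over the 3 control arrays; knockout 86 is blue in most rows, knockout 73 is near white or red in many, and the rows of Ifit1 and Ifit3 are blue in all 3 knockouts.

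Upstream of these genes, the interferons themselves gave low signal. All 8 interferon genes measured lay below the filter, among them Ifng at 1.36 to 2.33. With no filter, 4 of the 8 lay above 0 and 4 below, and none passed the limma threshold. Ifnb1, which encodes interferon beta, and Ifna4 were lower in every knockout, at -0.48 and -0.65 (adjusted p = 0.206 and 0.246), and Ifnz was higher in every knockout, at 0.49 (adjusted p = 0.24). Among all genes above the filter, 15.1% were lower and 12.9% higher in every knockout. The share was not counted for genes below it. Of 13 receptor and JAK-STAT genes tested, 0 passed the limma threshold in either direction, 3 were higher at an unadjusted p under 0.05 (9.91% of all genes were) and 0 lower, and the list median was 0.12. Ifngr2, the signalling subunit of the interferon-gamma receptor, read 9.08, 8.003 and 7.57 in controls 30, 74 and 75, and 9.91, 9.54 and 10.19 in knockouts 72, 73 and 86. Every knockout lay above every control. The difference was 1.66 (SE 0.39, adjusted p = 0.0782), and it passed with array weights and without control 30 (adjusted p = 0.0183 and 0.0192). Socs3, a feedback inhibitor of JAK kinases, stood at 1.46 (adjusted p = 0.144) and the phosphatase gene Ptpn2 at 0.49 (adjusted p = 0.17), both with all knockouts above the controls. Pias1 stood at -0.31 (adjusted p = 0.282). All knockouts lay above all controls in 3 of the 13 and below them in 1, where 12.9% and 15.1% of all genes tested did so. The other subunits of the type I and interferon-gamma receptors, Ifnar1, Ifnar2 and Ifngr1, stood at 0.33, 0.05 and -0.08 with overlapping groups (adjusted p = 0.314, 0.923 and 0.805).

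Of 16 genes tested for nucleic acid sensing and interferon production, 0 passed the limma threshold. At an unadjusted p under 0.05 there were 3 higher and 0 lower, where 9.91% of all genes were higher and 11.5% lower. All knockouts lay above all controls in 4 of the 16 and below them in 1, where 12.9% and 15.1% of all genes did so. Irf5 and Irf8, transcription factors with high levels in myeloid cells, stood at 1.47 and 1.46 (adjusted p = 0.0615 and 0.178), with all knockouts above all controls. The Toll adaptor Ticam1 stood at 0.33 and the receptor Tlr4 at 0.60 (adjusted p = 0.217 and 0.253). Irf5 passed with no normalization between arrays (adjusted p = 0.0477) and with array weights (adjusted p = 0.049).

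A further 37 interferon-induced genes outside the member list were tested. Of these, 0 passed the limma threshold, while 1 was higher and 5 lower at an unadjusted p under 0.05, where 9.91% of all genes were higher and 11.5% lower; the count of lower genes is near that background. The median was -0.14, and 28 of the 37 lay below 0, against 57.1% of all genes tested. All knockouts lay below all controls in 6 of the 37, near the 15.1% of all genes, and above them in 1, where 12.9% did so. Cmpk2, a mitochondrial nucleotide kinase gene, stood at -0.67, Irgm2 at -0.67 and Gbp6 at -0.66 (adjusted p = 0.117, 0.163 and 0.147), all with every knockout below every control. Ifi30, a thiol reductase of antigen-presenting cells, was on the other side at 1.03 (adjusted p = 0.13). Of 10 genes of MHC class I and its loading, 0 passed the limma threshold, with 2 higher and 0 lower at an unadjusted p under 0.05. The general chaperones Calr, Pdia3 and Canx stood at 0.46, 0.70 and 0.26 (adjusted p = 0.0964, 0.139 and 0.239), Tapbp at -0.27 (adjusted p = 0.327), and B2m, the light chain, at 0.04 (adjusted p = 0.942).

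Markers of other cells differed between groups beside the interferon genes. All 5 pan-leukocyte markers and 7 of the 11 tested macrophage markers were higher in every knockout than in any control, where 12.9% of all genes tested were. The macrophage marker Itgam, below the filter, was also higher in every knockout. None of the tested genes of these lists passed the limma threshold. At an unadjusted p under 0.05, 5 of 5 and 8 of 11 were higher, where 9.91% of all genes were. The summed linear level of the macrophage list was 5097 to 7264 in controls and 11270 to 32160 in knockouts, with knockout 73 the highest, and that of the pan-leukocyte list 586 to 1125 and 2179 to 9051. Ccr2, a chemokine receptor of monocytes, rose by 2.35 (limma adjusted p = 0.0113). Of the 6 monocyte and neutrophil markers measured, it was the only 1 that was higher in every knockout. The summed level of the 6 overlapped between groups, at 822 to 1790 in controls and 1302 to 2219 in knockouts. Plac8 made up most of that sum on each array. T and NK cell markers were mostly dim, with 2 of 11 above the filter. With no filter 8 of the 11 lay above 0, where 57.4% of all genes lay below 0, and Klrd1 and Gzmb were higher in every knockout. Such separation was counted over all genes only above the filter, where 12.9% were higher in every knockout. Their summed level was 301 to 319 in controls and 312, 511 and 331 in knockouts 72, 73 and 86. Of 7 dendritic cell markers, 2 were above the filter. With no filter 6 of the 7 lay above 0, and Flt3, Cd209a and Zbtb46 were higher in every knockout (12.9% of all genes above the filter were). Of these 3 genes, Flt3 and Cd209a lay below the filter. The summed level of that list was 336 to 458 in controls and 531 to 915 in knockouts. For the 6 B cell and plasma cell markers it was 1878 to 2815 in controls and 2376, 7515 and 1782 in knockouts 72, 73 and 86. Of these 6, 0 were higher or lower in every knockout. Sdc1, at 10.62 to 11.21 on the log2 scale, made up most of that sum on every array but knockout 73. The B cell genes Ms4a1, Cd79a, Cd79b and Blk lay below the filter. Jchain, a plasma cell gene, read 12.23 in knockout 73 and 6.21 to 8.68 on the other arrays.

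Endothelial markers stood lower, with a list median of -0.56 over 9 genes. Of these, 3 (Pecam1, Tek and Vwf) lay below all controls in every knockout, where 15.1% of all genes did. None passed the limma threshold, and 3 were lower at an unadjusted p under 0.05, where 11.5% of all genes were. The summed endothelial level was 19140 to 22440 in controls and 14070, 19930 and 14280 in knockouts 72, 73 and 86. By median relative to the control mean, the endothelial list stood at -0.74, 0.05 and -0.61 in knockouts 72, 73 and 86, the Schwann cell list at -0.76, -0.41 and -1.08, and the smooth muscle list at -0.15, -0.50 and -0.21. All 3 Schwann cell markers (Sox10, S100b and Mbp) lay below every control in every knockout, against 15.1% of all genes. Their list median was -0.69, with 0 past the limma threshold and 3 lower at an unadjusted p under 0.05 (11.5% of all genes were). The 4 white adipocyte markers had a list median of -0.35, all with overlapping groups and 0 past the limma threshold (0 at an unadjusted p under 0.05). Their median was -1.24, 0.60 and 0.46 in controls 30, 74 and 75 and 0.01, -0.06 and -0.78 in knockouts 72, 73 and 86. Control 74 was the highest control and knockout 86 the lowest knockout, as in most interferon members. Unlike in most interferon members, control 30 was the lowest array and knockout 73 was not the highest knockout. The 6 adventitial fibroblast markers had a list median of 0.29, with 5 above 0 and 0 past the limma threshold. Pdgfra and Lum were higher in every knockout (12.9% of all genes were). These 2 were also higher at an unadjusted limma p under 0.05 (9.91% of all genes were). The part of these cell types in the interferon differences was not tested.

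**Figure D4:**
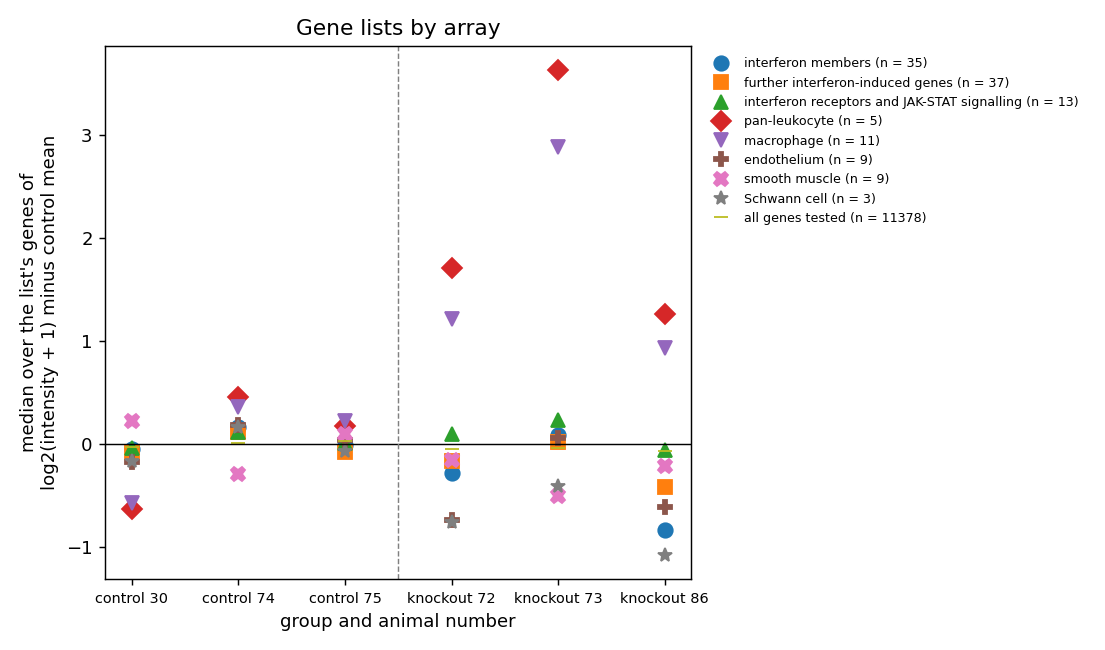
Median over the genes of each list of log2(intensity + 1) minus the gene's control mean (y axis) on each of the 6 arrays (x axis, by group and animal number); the legend gives the number of genes per list. Pan-leukocyte and macrophage markers stand highest in knockout 73, at 3.63 and 2.88, where the interferon members stand at 0.09, and the interferon members are lowest in knockout 86, at -0.84.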

How the data were processed

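Total RNA for 6 arrays was biotin-labelled, per the labels' protocols. The table deposited by the authors gives each of 45037 probe sets an intensity on a linear scale; its summarisation and scaling are not given in the sources used here, and the table carries no detection calls. The number of arrays limits the precision. Probe sets were named from the 2016 platform annotation (34945 with 1 symbol, 932 with several, 9160 with none); all 38 member identifiers were found in the RefSeq table of GRCm38.p6, with 0 symbols changed. From these, log2(intensity + 1) was taken and the arrays were quantile normalized. Probe sets under the median of all probe set means (log2 6.10) were left out, and the probe set with the highest mean stood for its gene. Groups were compared with limma 3.58.1 (R 4.3.3, lmFit, eBayes, 2-sided, Benjamini-Hochberg over 11378 genes) and called at an adjusted p under 0.05. The code was tested on simulated data with independent noise in each probe set. That simulation held no shifts shared by many genes on an array. Each array is a separate animal; no batch is named. Values are given array by array for members past the threshold, members whose groups do not overlap and the leading genes of each role; of the other lists, the up to 4 genes with the smallest p and a few key genes are named. The members and lists were chosen with earlier results of these data known. Alternatives changed the filter, probe set rule, normalization, pseudocount, prior and array weights, or left out 1 array; a filter at the median of named probe sets and the summed marker levels were added after seeing the data. Promoters and motif matches came from RefSeq tables with Python 3.11.15.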

Additional observations from a re-analysis of the deposited data

How the results depend on the processing

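Over 15 alternatives, 25 of the 35 tested members kept their direction and their side of the threshold in each setting run. The count of members called lower was 1 as reported, 0 with no filter, 3 with array weights (Ifit1, Ifit3 and Gbp2) and 0 to 1 with 1 array left out: it was 0 without control 30, control 75, knockout 72 or knockout 86, and 1 without control 74 (Ifit1) or knockout 73 (Ifit3). Over all genes 220 were called higher and 79 lower as reported, 157 and 17 with no filter, 123 and 43 with the filter at the 70th percentile, and 586 and 611 with array weights; with 1 array left out the counts were 43 to 185 higher and 4 to 94 lower. With array weights 3 receptor and JAK-STAT genes, 1 nucleic acid sensing gene, 1 further interferon-induced gene and 2 MHC class I genes passed; 1 sensing gene passed with no normalization between arrays, and receptor and JAK-STAT calls were 0 to 1 with 1 array left out. The causes were not tested. Of the members 7 changed sign in some setting: Eif2ak2 was -0.17 with the mean of probe sets, Irf9 0.036 and Stat2 0.077 with array weights, Stat2 0.011 and Ifi27l2a 0.0048 with no normalization, and Xaf1, at -0.49 as reported, 0.15 with the mean of probe sets. With 1 array left out, the ranges were -0.035 to 0.16 for Eif2ak2, -0.30 to 0.073 for Irf9, -0.34 to 0.13 for Stat2, -0.23 to 0.12 for Ifi27l2a, -0.42 to 0.0275 for Ifi47 and -0.47 to 0.27 for Tap1. The median of the members lay between -0.57 and -0.10 over the alternatives. No paired analysis was possible because the labels link no knockout animal to a control animal.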
